A study of Homo sapiens with 8 samples.

Results

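The 10 genes described here encode alpha subunits of heterotrimeric G proteins: GNAI1, GNAI2, GNAI3, GNAO1, GNAZ, GNAS, GNAQ, GNA11, GNA12 and GNA13. They were chosen by gene symbol, and each symbol matched 1 of the 58440 genes in the deposited table of counts. Messenger RNA of HEK293 cells, a human embryonic kidney line, was sequenced as stranded polyA libraries. The labels describe 8 samples in 4 groups of 2: HTR1E-stable cells given serotonin, HTR1E-stable cells with no ligand, control cells given serotonin, and control cells with no ligand. All cells were starved of serum for 3 h, and serotonin was given at 1 µM for 1 h. HTR1E is a serotonin receptor that signals through inhibitory G proteins; the promoter that drives it, and whether the line is 1 clone, are not given in the sources used here.

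Each of the 8 columns of counts is named by its treatment and an ending, the letter A or B alone or followed by an R, and the labels do not say what the endings mean. Each column was therefore placed by name in a treatment group only, 4 with serotonin and 4 with no ligand. The first letter of the ending divides the columns into set A and set B, each with 2 columns per treatment. Where values are listed by column, the column with the R follows the one without it. HTR1E itself had 253 and 249 CPM (counts scaled to library size) in the serotonin columns of set A and 202 CPM in both no ligand columns of set A. It had 0.255 CPM in serotonin B and 0.399 CPM in serotonin BR. No read pair fell on HTR1E in no ligand B or no ligand BR, and a count of 0 allows up to 1.152 and 0.359 CPM there. The receptor transcript thus separated the sets without overlap, but no column was assigned to a cell line from its counts, and the sets are called by their letters throughout. The comparisons between the HTR1E-stable line and the control line that the labels describe were for this reason not tested.

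Libraries held 5439082 to 7839885 counted read pairs with serotonin and 2604885 to 9072278 with no ligand. Mitochondrial genes took 17.9% to 24.6% of counts in set A and 18.9% to 54.4% in set B, where no ligand B (54.4%) and serotonin BR (36.3%) stood above the other 6 columns. No ligand B was also the shallowest library. Estimates that moved most without these columns are given both ways. Of 5 marker genes listed for the line, VIM, KRT8, KRT18 and CDH2 were detected in every column at no less than 10.4 TPM (counts scaled to gene length and library size), while PAX2, a kidney developmental factor, lay between 0.768 and 5.18 TPM.

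G protein alpha subunits bind GDP at rest and exchange it for GTP when an activated receptor engages the trimer. The alpha subunit and the beta-gamma dimer then act on separate effectors until GTP is hydrolysed. Subunits of the Gi/o class lower cAMP by inhibiting adenylyl cyclase, and serotonin receptors of the 5-HT1 family signal through them. Gs raises cAMP, the Gq and G11 subunits activate phospholipase C beta, and G12 and G13 form a separate class.

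All 4 classes were transcribed in these cells, with levels given here as TPM from the counts and the exonic length of each gene. GNAS, which encodes the stimulatory subunit, was the highest member in all 8 columns, with a mean of 97.5 ± 20.1 TPM with serotonin and 91.1 ± 48.7 TPM with no ligand (SD, n = 4 each). TPM is scaled to a total that includes mitochondrial genes, so a column rich in them has lower TPM for other genes. GNAS had 26.8 TPM in no ligand B and 79.9 TPM in no ligand BR. The TPM means here describe levels and do not compare the treatments. The GNAS locus makes several overlapping transcripts from different first exons, and the counts sum them. Next came GNA11, the G11 subunit, with 27.1 ± 10.1 TPM with serotonin and 32.8 ± 15.8 TPM with no ligand. GNAI2, encoding Gi2, averaged 25.6 ± 19.4 TPM with serotonin and 27.8 ± 22.1 TPM with no ligand. The wide spread of GNAI2 lies between the sets of columns and is described further on.

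GNA13, the G13 subunit, had a median of 22.8 TPM over the 8 columns, GNAZ, a Gi/o class subunit that pertussis toxin does not modify, 20.1 TPM, and GNA12, the G12 subunit, 16.9 TPM. GNAQ, the Gq subunit, had a median of 12.6 TPM and GNAI1, encoding Gi1, 10.97 TPM. The Gi3 gene GNAI3 had 6.21 TPM, and GNAO1, encoding the Go subunit that is abundant in neurons, was lowest at 1.37 TPM. Most neighbours did not keep this order in all 8 columns. GNA11 exceeded GNAI2 in 4 of 8 columns, GNAI2 exceeded GNA13 in 6, and GNA13 exceeded GNAZ in 3. The order of GNA11 and GNAI2 went with the set. GNAI2 was the higher in all 4 columns of set A and GNA11 in all 4 columns of set B. The 3 steps that held in all 8 columns were GNAS over GNA11, GNAI1 over GNAI3 and GNAI3 over GNAO1.

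**Figure D1:**
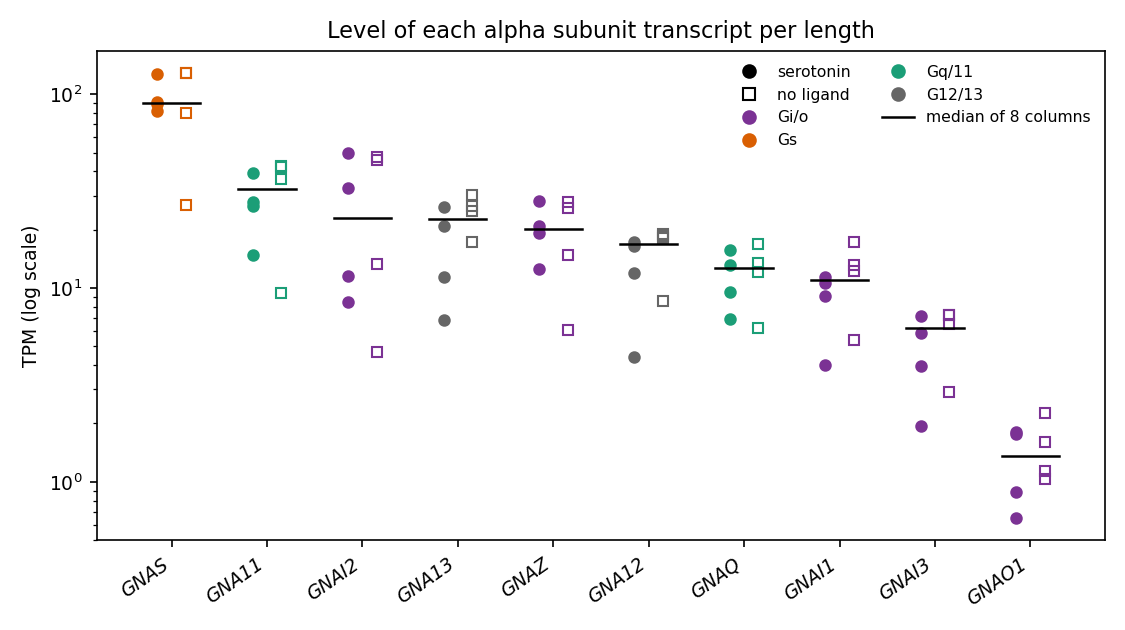
Level of each alpha subunit gene in TPM on a log scale, ordered by the median of the 8 columns (black line). Filled circles are the 4 serotonin columns and open squares the 4 no ligand columns, coloured by class. GNAS lies highest with a median of 90.5 TPM and GNAO1 lowest with 1.37 TPM.

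The place of GNAI3 rests on its length. Its annotated exons cover 27174 bases, the longest among the members, and without division by length it ranked 4th by TMM-normalised CPM, against 9th by TPM. With the median length of the coding transcripts of GENCODE 29 as divisor it ranked 10th and GNAO1, with 859.5 bases, ranked 7th. For GNAI3 that median is the same 27174 bases, so this measure is no separate check on its place. By the median of the 8 columns, GNAS, GNA11 and GNAI2 kept the first 3 places under all 3 measures. In single columns the TPM rank of GNAI2 ran from 2 to 8. Its mean TMM-normalised CPM was 111 in set A, above GNAI3 (60.8) and GNA13 (41.8). In set B it was 36.5, below GNAI3 (54.1) and GNA13 (44.2).

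Summed by class, the single Gs gene held a median of 39.7% of the TPM of the 10 members, with a range of 30.1% to 59.7% over the 8 columns. The 5 Gi/o genes together held a median of 26.4% (18.8% to 30.4%), the Gq and G11 genes 17.5% (14.2% to 21.0%) and the G12 and G13 genes 13.5% (7.36% to 29.1%). The Gi/o share was higher in every column of set A (28.5% to 30.4%) than in any column of set B (18.8% to 24.4%). The shares of the other classes overlapped between the sets, and no test was made. The highest Gs share fell in serotonin BR and the highest G12 and G13 share in no ligand B, the columns with the most mitochondrial reads. Without those columns the ranges were 34.3% to 43.8% for Gs and 12.2% to 21.1% for G12 and G13. Whether the mitochondrial reads bear on these shares was not tested. The shares depend on the length used. Per length of the median coding transcript, Gs held a median of 66.6% and the Gq and G11 genes 18.6%. The Gi/o genes held 11.5% and the G12 and G13 genes 3.32%. The order of the Gi/o class and the Gq and G11 genes thus turned round. That median length was only 733 bases for GNA11 and 859.5 bases for GNAO1, against 6242 and 13697 exonic bases. Whether those transcripts are complete was not checked.

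Several members lie beside a second alpha subunit gene in the genome. In hg38 coordinates of the deposited table, GNAI2 (chr3:50226292-50259355, plus strand) lies 29.8 kb from GNAT1, and GNA11 (chr19:3094410-3124004, plus strand) lies 12.2 kb from GNA15. GNAQ lies 67.8 kb from GNA14 on chromosome 9 and GNAI1 lies 239.3 kb from GNAT3 on chromosome 7. GNAI3 (chr1:109548611-109618321, plus strand) and GNAT2 on the minus strand overlap by 15055 bases, and the authors' counting used strand.

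Over the 8 columns together GNAI2 had 4746 read pairs and GNAT1, the transducin of rod photoreceptors, 3. GNAI3 had 3345 and GNAT2, the transducin of cones, 18, while GNAI1 had 1103 and GNAT3, the taste cell gustducin, 1. GNA11 had 4453 read pairs and GNA15, a Gq class subunit of blood cells, 7, and GNAQ had 1798 against 4 for GNA14. In each of these 5 pairs the member was the transcribed one, and no neighbour reached more than 6 read pairs in any column. The olfactory subunit gene GNAL, a close relative of GNAS and no member, was the only one of the 6 other alpha subunit genes to pass the filter on low counts. It ranged from 5.76 to 15.4 TPM with serotonin and from 8.59 to 16.6 TPM with no ligand.

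The members that varied most between columns were GNAI2 and GNAO1, and they varied with the letter of the set and in opposite directions. Values across columns are given as CPM after TMM normalisation, a scaling for library composition, and they are descriptions with no test because the sets carry no label. In a culture, fewer transcripts per cell and fewer cells that carry them cannot be told apart.

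GNAI2 had 124, 89.8, 110 and 122 CPM in set A (the 2 serotonin columns, then the 2 no ligand columns). It had 36.7, 43.6, 30.6 and 34.96 CPM in set B (serotonin B, serotonin BR, no ligand B and no ligand BR). All 4 columns of set A lay above all 4 of set B, with means of 111 ± 15.6 and 36.5 ± 5.42 CPM (SD, n = 4 each), a ratio of 3.06. Without no ligand B and serotonin BR the ratio was 3.11.

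GNAO1 was much lower and ran the other way. It had 3.96, 3.18, 4.89 and 4.71 CPM in the 4 columns of set A, in the same order, and 10.4, 16.2, 18.8 and 10.7 CPM in those of set B. The means were 4.18 ± 0.781 CPM in set A and 14.02 ± 4.15 CPM in set B (SD, n = 4 each), and set B stood 3.35 times as high, or 2.52 times without no ligand B and serotonin BR. The largest GNAO1 values of each treatment came from the 2 columns with most mitochondrial reads, whose part in the difference was not tested.

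The other 8 members overlapped between the sets, with log2 ratios of set A over set B between -0.12 for GNAI1 and 0.35 for GNAZ. Over the 15779 genes tested, the 4 columns of set A lay above those of set B for 10.3% and below them for 7.93%, so 1 member in each direction out of 10 is near the background count. The size of the ratio was less common. The log2 ratio of 1.61 for GNAI2 was reached or exceeded by 1.75% of tested genes, and that of -1.74 for GNAO1 was reached or undercut by 1.52%; the median over all tested genes was -0.05.

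**Figure D2:**
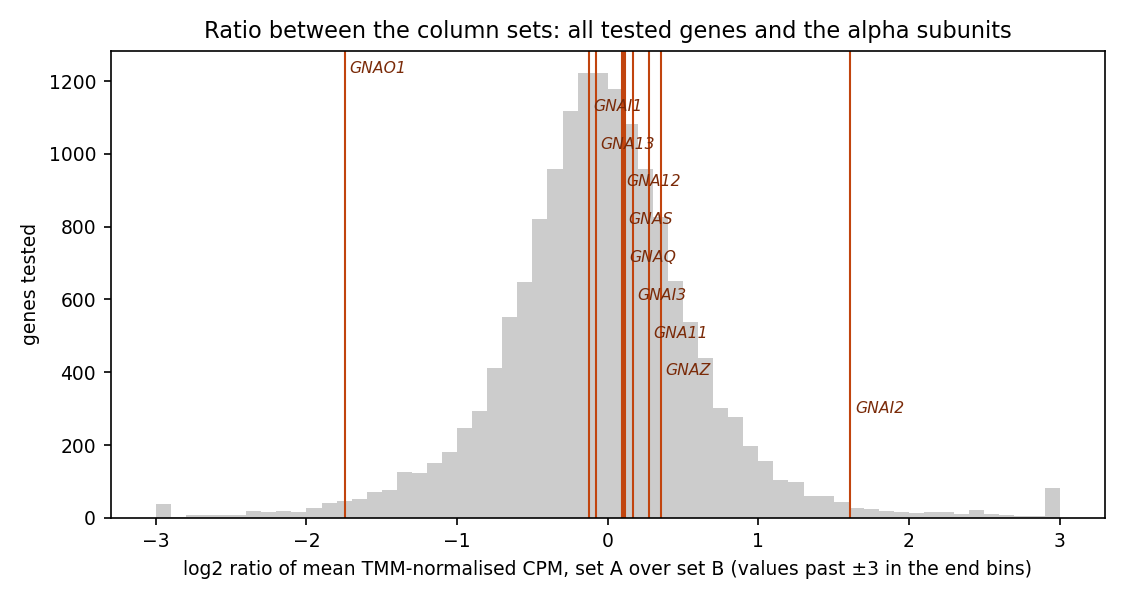
Distribution over 15779 tested genes of the log2 ratio of mean TMM-normalised CPM in set A over set B (horizontal axis), with the number of genes on the vertical axis; values past the ends are in the end bins. Lines mark the 10 alpha subunit genes. GNAI2 at 1.61 and GNAO1 at -1.74 lie in opposite tails, and the other 8 lie between -0.12 and 0.35.

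The make-up of the Gi/o class differed between the sets accordingly. GNAI2 supplied 45.0% to 52.2% of the summed TPM of the 5 Gi/o genes in set A and 22.5% to 29.6% in set B. GNAO1 supplied 0.891% to 1.23% in set A and 3.98% to 7.74% in set B. GNAZ ranged from 28% to 29.5% in set A and from 26.9% to 43.5% in set B. It exceeded GNAI2 in all 4 columns of set B and was the largest Gi/o share in serotonin B, serotonin BR and no ligand B. In no ligand BR the largest share was that of GNAI1, at 31.5%. The order of GNAZ and GNAI2 rests on the exonic length, since GNAI2 lay above GNAZ in all 4 columns of set B by TMM-normalised CPM and also per length of the median coding transcript. By that last measure GNAI2 supplied 65.2% to 71.1% of the class in set A and 26.7% to 36.8% in set B. GNAO1 supplied 5.73% to 7.58% in set A and 25.9% to 41.5% in set B. Those GNAO1 shares rest on its short median of 859.5 bases, against 13697 exonic bases.

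The promoters of GNAI2 and GNAO1 are printed because these were the members whose column sets did not overlap. RefSeq (GRCh38.p14) gives windows from 250 bases before to 50 bases after a start for 8 of the 10 members, in 18 windows. Both strands were searched for the cAMP response element TGACGTCA, its core TGACG, which the full element contains, the GC box GGGCGG and the EGR motif GCGTGGGCG. Of 35116 RefSeq windows of this length, 1.85% hold the full element, 24.6% the core, 45.0% the GC box and 0.795% the EGR motif. GNAO1 was the only member of the 8 with a full cAMP response element, and none had the EGR motif. Counted by window, as the background is, 6 of the 18 members' windows (33.3%) held a core and 9 of 18 a GC box. The GNAI2 window chr3:50230287-50230586 held no match to any of the motifs and is not printed. Capitals mark cores, full elements and GC boxes on either strand. A match is a string of letters and does not show that a factor binds there.

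The GNAO1 window, chr16:56191239-56191538 on the plus strand, and 2 of the 3 GNAI2 windows, chr3:50235954-50236253 with GC boxes and chr3:50246660-50246959 with cores, both on the plus strand, read as follows.
GNAO1: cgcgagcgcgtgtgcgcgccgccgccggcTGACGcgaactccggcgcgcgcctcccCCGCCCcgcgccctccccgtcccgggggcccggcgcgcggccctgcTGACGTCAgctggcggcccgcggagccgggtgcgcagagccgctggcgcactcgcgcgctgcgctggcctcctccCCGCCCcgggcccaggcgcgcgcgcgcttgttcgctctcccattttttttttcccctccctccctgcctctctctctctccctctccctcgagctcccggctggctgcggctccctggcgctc
GNAI2, first of these starts: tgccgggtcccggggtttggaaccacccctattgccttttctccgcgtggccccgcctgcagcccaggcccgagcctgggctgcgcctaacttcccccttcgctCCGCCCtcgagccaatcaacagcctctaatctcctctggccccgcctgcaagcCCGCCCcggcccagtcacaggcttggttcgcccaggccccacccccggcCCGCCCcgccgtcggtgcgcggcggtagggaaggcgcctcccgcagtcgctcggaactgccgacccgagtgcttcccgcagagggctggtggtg
GNAI2, further downstream: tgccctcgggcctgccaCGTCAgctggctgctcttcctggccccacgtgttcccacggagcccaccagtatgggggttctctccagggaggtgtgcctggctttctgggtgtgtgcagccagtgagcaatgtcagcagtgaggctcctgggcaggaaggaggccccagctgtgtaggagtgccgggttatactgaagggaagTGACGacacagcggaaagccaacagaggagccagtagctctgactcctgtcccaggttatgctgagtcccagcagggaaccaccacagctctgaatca

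The response to serotonin was then examined across all 8 columns with the first letter of the ending as a covariate. No alpha subunit gene was called at a false discovery rate of 0.05 by edgeR's quasi-likelihood test. The same test called 0 of 15779 genes (0%), with 585 genes at an unadjusted p under 0.05, and DESeq2 also called 0, with 931 at an unadjusted p under 0.05. For none of the 10 members did the 4 serotonin columns lie wholly above or below the 4 no ligand columns; over all tested genes this happened for 0.976% above and 1.15% below. The members' log2 fold changes, serotonin over no ligand, had a median of -0.20 against -0.0047 over all tested genes, with 3 positive and 7 negative.

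GNA13 had the largest estimate. It had 34.6, 47.7, 24.5 and 23.4 CPM in the serotonin columns of set A and then set B and 40.1, 44.9, 75.8 and 53.2 CPM in the no ligand columns in the same order. The serotonin mean was 32.6 ± 11.3 CPM and the no ligand mean 53.5 ± 15.8 CPM (SD, n = 4 each), and the groups overlapped within set A. Its log2 fold change was -0.72 ± 0.30 (SE), with an unadjusted p of 0.0348 and an adjusted p of 0.716 by edgeR. Without no ligand B and serotonin BR it was -0.40, an estimate that leaves 1 column per treatment in set B.

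For the genes of the inhibitory class, the 95% intervals below come from the fit over both sets. They bound a change common to the sets and not a change within 1 set. In set B alone the intervals reached -1.356 for GNAI3, -1.355 for GNAI1 and 1.233 for GNAZ. GNAI2 had a log2 fold change of 0.08 with an interval of -0.37 to 0.52, GNAZ 0.29 (-0.17 to 0.75), GNAI1 -0.42 (-0.90 to 0.07), GNAI3 -0.38 (-0.87 to 0.11; -0.20 without no ligand B and serotonin BR) and GNAO1 -0.25 (-0.87 to 0.37). For GNAS the estimate was 0.36 (-0.32 to 1.04), and without no ligand B and serotonin BR it was -0.02. GNAQ at -0.06 (-0.48 to 0.36) had the estimate nearest to 0, and GNA11 had -0.14 (-0.60 to 0.32). GNA12 had -0.41 (-0.93 to 0.11), and -0.16 without no ligand B and serotonin BR. Adjusted p-values for these 9 members lay between 0.716 and 0.922 by edgeR, and the intervals leave room for changes in either direction.

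**Figure D3:**
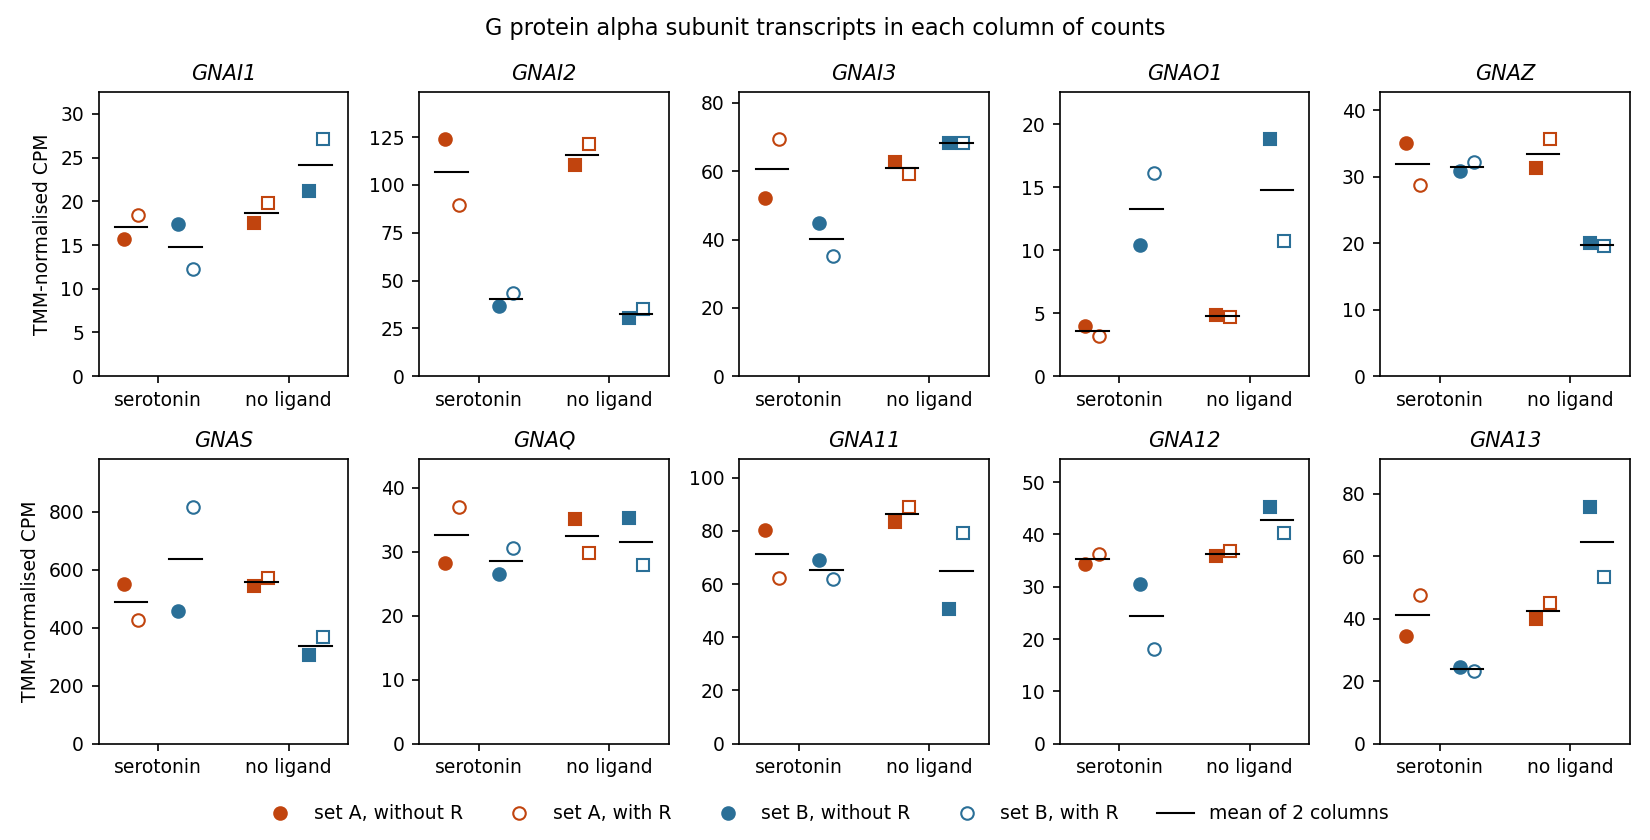
TMM-normalised CPM of each alpha subunit gene in the 8 columns, with serotonin on the left and no ligand on the right of each panel, set A in orange and set B in blue. Circles are serotonin and squares no ligand, filled symbols are columns without an R in their ending, open symbols those with one, and lines are means of 2 columns. The sets separate for GNAI2 and GNAO1, and for GNA13 the serotonin columns of set B (23.4 and 24.5 CPM) lie below the no ligand columns of set B (53.2 and 75.8 CPM).

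Within the sets, the fit gave each set its own serotonin contrast, 2 columns against 2. In set A no member was called and the estimates were small, from -0.42 for GNAO1 to 0.01 for GNAQ; edgeR called 0 of 15779 genes (0%), with 40 at an unadjusted p under 0.05, and DESeq2 called 0. GNA13 in set A had a log2 fold change of -0.05 with an interval of -0.65 to 0.56. GNAI2 had -0.12 (-0.71 to 0.47), and GNAS -0.19 (-0.98 to 0.61).

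In set B also no member was called by edgeR, which called 2 of 15779 genes (0.0127%), but 6 of the 10 members had an unadjusted p under 0.05. NR4A1 and NR4A2, immediate early genes that encode orphan nuclear receptors, were the 2 genes called; they were named after their values were seen. NR4A2 had a log2 fold change of 2.71 and an adjusted p of 0.0272 by edgeR. NR4A1 had 87.8 and 105 CPM in serotonin B and BR and 16.5 and 15.4 CPM in no ligand B and BR, a log2 fold change of 2.61 (adjusted p = 0.0272 by edgeR). The count of 2 was 0 without any 1 column of set A or without serotonin BR, 1127 without serotonin B and 4828 without no ligand BR, and it was 1633 by DESeq2. Across all genes in set B 4389 had an unadjusted p under 0.05, which is 27.8% of those tested.

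GNA13 had the largest member estimate in set B, with a log2 fold change of -1.41 ± 0.29 (SE), an interval of -2.04 to -0.78 and an adjusted p of 0.0660 by edgeR. Both serotonin columns, at 24.5 and 23.4 CPM, lay below both no ligand columns, at 75.8 and 53.2 CPM. Without no ligand B and serotonin BR the estimate was -1.12 (adjusted p = 0.0971 by edgeR), with 1 column against 1 in set B and the spread taken from set A. The direction held in every alternative run. GNA13 passed the threshold with DESeq2 (adjusted p = 0.00280), a run that called 1633 of 15779 genes in set B. It also passed with no filter on low counts (adjusted p = 0.00439 by edgeR), where 1830 of 35617 genes were called. These passes are therefore not particular to GNA13. Without no ligand BR the estimate was -1.66. That fit leaves no ligand B, with 54.4% mitochondrial reads, as the lone no ligand column of set B. It assumes that this column varies like the other groups. Over all alternatives its adjusted p ranged from 0.00235 to 0.565.

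GNA12, the other subunit of its class, had 30.6 and 18.2 CPM in serotonin B and BR and 45.3 and 40.2 CPM in no ligand B and BR. Its log2 fold change was -0.79 (adjusted p = 0.117 by edgeR), and it passed the threshold only when serotonin B was left out (adjusted p = 0.0483), which leaves serotonin BR as the lone serotonin column of set B, assumed to vary like the other groups. GNAI3 had 44.9 and 35.2 CPM with serotonin in set B and 68.2 and 68.3 CPM with no ligand, a log2 fold change of -0.77 (adjusted p = 0.1102). GNAI1 had 17.4 and 12.3 CPM with serotonin and 21.2 and 27.1 CPM with no ligand, a log2 fold change of -0.72 (adjusted p = 0.140). In these 3 genes the serotonin columns of set B lay below the no ligand columns, as they did for 26.7% of all tested genes, against 28.5% in which they lay above, and none passed the threshold in the edgeR fit of all 8 columns. Without no ligand B and serotonin BR the estimates were -0.40 for GNA12, -0.61 for GNAI3 and -0.64 for GNAI1.

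GNAZ and GNAS had positive estimates in set B. GNAZ had 30.8 and 32.2 CPM in serotonin B and BR and 19.98 and 19.6 CPM in no ligand B and BR, a log2 fold change of 0.67 (adjusted p = 0.126 by edgeR). GNAS had 456 and 817 CPM in serotonin B and BR and 307 and 367 CPM in no ligand B and BR, with 0.92 (adjusted p = 0.140), and 0.31 without no ligand B and serotonin BR. GNAI2, GNAO1, GNAQ and GNA11 had estimates between -0.12 and 0.28 in set B. In set B the mitochondrial share was 24.6% and 36.3% in the serotonin columns against 54.4% and 18.9% in the no ligand columns, and its part in these differences was not tested.

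**Figure D4:**
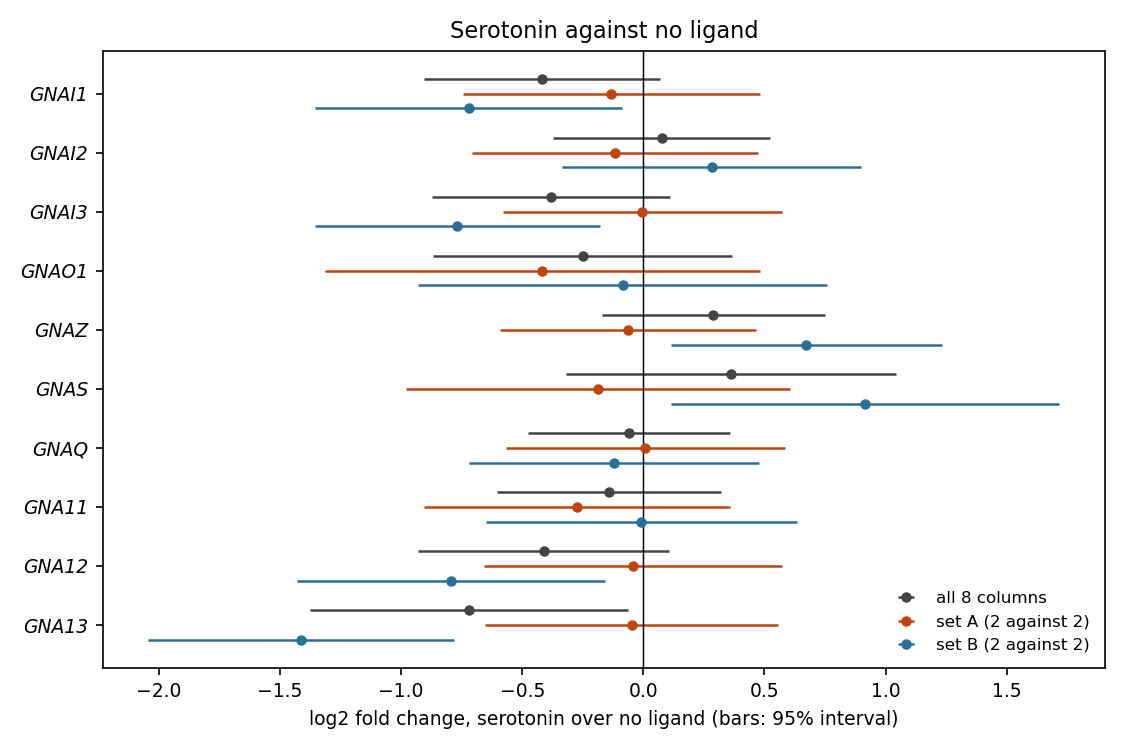
Log2 fold change, serotonin over no ligand, of each alpha subunit gene (horizontal axis) with its 95% interval, from all 8 columns (grey), set A (orange) and set B (blue). Set A estimates lie between -0.42 and 0.01, and set B estimates run from -1.41 for GNA13 to 0.92 for GNAS.

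The difference between the sets in the serotonin response was tested as an interaction, and no member was called. The test called 0 of 15779 genes (0%) by edgeR, with 2433 at an unadjusted p under 0.05, and 77 by DESeq2, none of them a member. GNA13 had the largest interaction among the members, set A minus set B, at a log2 difference of 1.36 (interval 0.49 to 2.24, adjusted p = 0.296 by edgeR). Without no ligand BR, where no ligand B alone stands for the no ligand cells of set B, the difference was 1.60. GNAS had -1.10 (interval -2.23 to 0.02, adjusted p = 0.327 by edgeR), but -0.63 without serotonin BR and -0.49 without both that column and no ligand B. The within-set responses of GNA13 were therefore not shown to differ by the fit of all 8 columns.

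Genes that work with the alpha subunits were taken from lists by function, and none was called for serotonin against no ligand over the 8 columns. Of the genes for beta and gamma subunits 12 of 17 passed the filter on low counts, of the alpha chaperones and exchange or dissociation factors 9 of 9, of the effectors, cyclases and phospholipases among them, 13 of 16, and of the RGS proteins, which speed GTP hydrolysis, 12 of 20. Their median log2 fold changes were -0.03, 0.04, -0.10 and 0.22 against -0.0047 over all tested genes. Of these 46 genes 2 had an unadjusted p under 0.05, 1 with a positive and 1 with a negative estimate, against 3.71% of all tested genes.

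Between the sets, 3 of 13 effector genes lay higher in all columns of set A, all of them adenylyl cyclases, which the Gs subunit activates. The other 3 tested cyclases, ADCY1, ADCY3 and ADCY9, overlapped between the sets, with ratios of set A over set B of 0.636, 0.948 and 0.959. ADCY7 was 1.84 times, ADCY5 1.68 times and ADCY6 1.504 times as high by mean TMM-normalised CPM. Without no ligand B and serotonin BR these ratios were 1.81, 1.85 and 1.295. Of the 12 RGS genes tested, RGS9 (1.79 times) and RGS12 (1.46 times) lay higher in set A, and RGS16 lay higher in set B (1.68 times). Without the same 2 columns the ratios were 2.02, 1.47 and 1.80. Of the 9 chaperone and exchange or dissociation genes, NUCB1 (1.53 times) and NUCB2 (1.53 times), calcium-binding proteins that bind Gi alpha subunits, lay higher in set A. Their ratios without those 2 columns were 1.415 and 1.395. Of the 12 beta and gamma subunit genes tested, GNG4 (1.31 times) and GNGT1 (2.51 times), both for gamma subunits, lay higher in set B. Without no ligand B and serotonin BR they were 1.398 and 1.65 times as high. These counts stand beside the 10.3% and 7.93% of all tested genes whose sets did not overlap in each direction, and no test was made.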

How the data were processed

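The authors deposited raw counts, 1 table with a row per gene, made with featureCounts 2.0.1 in reverse-stranded paired mode on GENCODE 28 per the file headers. The submitters' processing notes name cutadapt 3.4, STAR 2.7.8a, SAMtools 1.12 and build hg38. Gene length is another deposited value, the exonic bases of each gene, used for TPM. Columns were placed in treatment groups by the treatment word in their names; the endings have no key in the labels, so no column was placed on a cell line, and the letter entered fits as an unnamed set. The members and lists were chosen with earlier results of these data known. Symbols matched 57754 of 58440 IDs.

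Counts were tested with edgeR 4.0.16 (filterByExpr, TMM, quasi-likelihood F-test, Benjamini-Hochberg over all 15779 genes tested, threshold 0.05), checked on simulated data. DESeq2 1.42.0, other scalings, filters and columns left out were alternatives. TMM-normalised CPM compare columns and TPM compare genes. Depth was 2604885 to 9072278 counts per column; intervals and floors (3 counts) cover counting error only where they come from counts. The labels do not say that replicates were separate cultures, so p-values may measure technical spread. Named genes were all members, HTR1E, and listed partners past the threshold; as none passed, those named beside them were chosen after their values were seen.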

Additional observations from a re-analysis of the deposited data

Results flagged for a closer look

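The following 3 properties of 1 column stood apart from the other no ligand columns, each with a gap to its nearest neighbour above the 95% critical value of Dixon's test for 4 samples. No ligand B held 2604885 counted read pairs, its mitochondrial share was 54.4%, and 20245 genes had at least 1 read pair. Among 26 groups of values examined, chance puts about 1 in 20 past this value. No member gene was past it.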

How the results depend on the processing

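For serotonin against no ligand over the 8 columns, 43 genes were called with no filter on low counts, and 0 under every other alternative, including the replicate block by the column ending, which called 0, with 415 genes at an unadjusted p under 0.05 and GNA13 at -0.72. The endings are not replicate numbers of the labels. Deviations from the treatment means correlated by 0.497, 0.0467, 0.15 and 0.377 for the 4 endings (set A, then set B). These values also carry the difference between the sets. Within the sets the correlations were 0.0101 in set A and 0.16 in set B. With 2 columns per treatment in a set, its 2 endings must give the same value. The check cannot decide whether the endings pair the columns, and no pairing was assumed in the main fit. In set B the count of 2 became 1633 with DESeq2, 1830 with no filter, 29 without no ligand B and serotonin BR, and 0 to 4828 when 1 column was left out, the highest without no ligand BR and 1127 without serotonin B. For the interaction the count of 0 became 77 with DESeq2, 570 with no filter, 2 without no ligand B and serotonin BR, and 0 to 3401 when 1 column was left out. In set A it was 0 in all. The cause was not tested.

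Of the members' log2 fold changes, 210 values under other settings and 292 with 1 column left out kept direction and side of the threshold, 2 and 3 passed it, and the rest reversed, all from estimates that were not called. Reversed over all columns were GNAI2 with no covariate (-0.0295) and without the 2 columns (-0.056), and GNAS without the 2 columns (-0.020). In set A they were GNAI3 without mitochondrial genes (0.00078) and GNAQ with no filter (-0.0242), and in set B GNA11 with RLE (0.0047), DESeq2 (0.0022) and no filter (0.0058). With 1 column left out, ranges that crossed 0 were GNAI2 -0.0138 to 0.20 and GNAQ -0.16 to 0.0342 over all columns. In set A they were GNAI2 -0.37 to 0.0935, GNAI3 -0.22 to 0.18, GNAZ -0.22 to 0.0685, GNAQ -0.20 to 0.19 and GNA13 -0.30 to 0.16. In set B they were GNAO1 -0.51 to 0.31, GNAQ -0.30 to 0.0418 and GNA11 -0.27 to 0.37. For the interaction they were GNAO1 -0.70 to 0.089, GNAQ -0.0706 to 0.31 and GNA11 -0.65 to 0.0201. The mitochondrial alternative, the fit without those 2 columns and the transcript-length levels were added after the data were seen.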
